A study of Drosophila melanogaster with 30 samples.

Results

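The genes described here are 9 components of epidermal growth factor receptor (EGFR) signalling in the adult Drosophila midgut. They are the ligands vn, spi and Krn, the protease rho, the receptor Egfr, the inhibitors aos, kek1 and sty, and the transcription factor pnt. Each was found by an exact match of its gene symbol in all 30 deposited tables, which hold 17488 genes each. Of the 9, 8 passed a filter on low values, a mean of at least 1 FPKM (fragments per kilobase of transcript, normalised to the size of the library) after scaling over all libraries, and were tested among 8335 genes. With a mean of 1.18 scaled FPKM, vn lay just inside the filter, and it would have fallen below it without its highest group, posterior control midgut (mean 0.948 over the other 9 groups), so its calls against that group are not independent of the filter. With a mean of 0.852, aos lay just outside it, and its tests come from a fit of 15281 genes without the filter. At a mean of 3.30, kek1 passed through its posterior high-cholesterol and Hr96[2x] libraries, so its calls there are not independent of the filter.

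The study asked how dietary lipid and the nuclear receptor Hr96 act on the fly midgut. Poly(A) RNA was sequenced from dissected posterior (labelled p1-4) and anterior (labelled a1-3) midgut of mated females aged 10 to 12 days, with 30 to 50 regions pooled per library. Wild-type y[1]w[1] flies were moved as pupae to a lipid-depleted diet, to a diet with 0.2% cholesterol (4 times the control level) or to the control diet. The strains TI{TI}Hr96[1] and Hr96[2x], called mutants in the description of the design, ate the control diet, so both are compared with y[1]w[1] on that diet. There were 3 libraries in each of 10 groups of region and condition. Nothing in the labels ties replicates to separate cultures, so the p-values reflect only how far these samples spread, which may be technical. How the Hr96 strains differ from y[1]w[1] beyond Hr96 is not stated, so the allele and the strain background cannot be told apart.

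The fly has a single EGF receptor, Egfr, which signals through Ras and the MAP kinase cascade to ETS factors such as pnt. The membrane-bound ligands spi and Krn must be cut by an intramembrane protease of the rhomboid family, of which rho is the founding member, whereas the neuregulin-like vn is secreted ready to act. The inhibitors aos, kek1 and sty are induced by signalling in several fly tissues and damp it at the ligand, the receptor and the Ras cascade. In the adult midgut the pathway is known for driving the division of intestinal stem cells, with vn made by visceral muscle and spi and Krn by epithelial cells.

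The files hold FPKM and not counts, so absolute depth is unknown. The scaling factors ran from 1.03 to 1.45 in posterior and from 0.537 to 1.199 in anterior libraries, and the 10 most abundant genes took 10.3% to 17.3% of the total in posterior and 16.6% to 38.1% in anterior ones. Hr96 itself stood at 27.9 to 42.1 scaled FPKM in the 6 Hr96[1] libraries and at 63.7 to 80.3 in the 6 Hr96[2x] libraries, against 43.4 to 67.9 in the 6 control libraries. On high cholesterol, Hr96 stood at 68.9 and 84.9 in replicate 1 of the posterior and anterior groups, apart from the 126.6 to 171.9 of replicates 2 and 3. Of 7 enterocyte markers, nub, Myo31DF, Myo61F and mex1 were at 65.8 scaled FPKM or above in every library, pdm2 fell to 1.401, and the digestive enzyme genes betaTry and alphaTry were at 0 in 4 and 3 libraries. Both enzyme genes were left out of the tests for a failed or overloaded estimate in at least 1 library. Their values of 0 may therefore not mean absence, and low enterocyte sums carry the same limit. Summed enterocyte levels ran from 1589 to 108581 in anterior Hr96[2x] midgut, against 64387 to 97483 in anterior control midgut. In anterior libraries betaTry reached 152848 and alphaTry 106922, and no other of the 7 markers exceeded 1248. High enterocyte sums are thus mainly these enzyme genes. Control replicate 1 held the highest fat body marker sums, at 1894 scaled FPKM in posterior and 1611 in anterior midgut for 8 markers. These high sums are mainly yolk protein genes. Over all libraries Yp1, Yp2 and Yp3 reached 246, 693 and 933, and no other of the 8 exceeded 19.4. Ovary markers also varied within groups, from 0.767 to 124 in anterior Hr96[1] libraries. In 8 of 10 groups the libraries most alike were replicates 2 and 3, and none held identical values. In bulk samples such as these, fewer cells of a type and less RNA per cell cannot be told apart.

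All levels below are scaled FPKM, which is per unit of transcript length, and are listed as replicates 1, 2 and 3. Differences are on the log2(scaled FPKM + 1) scale, where the added 1 shrinks the changes of low genes such as vn, aos and anterior kek1, and every adjusted p comes from limma with Benjamini-Hochberg adjustment over all genes tested (2-sided, called under 0.05). With 3 libraries a group, an exact permutation test of a single gene could not go below 0.1.

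Over the 30 libraries the cut ligands had the highest means of the 9 transcripts, 25.5 scaled FPKM for spi and 20.3 for Krn. The order differed between groups: in anterior Hr96[2x] midgut the means of sty (26.1) and pnt (23.4) lay above those of Krn (20.6) and spi (19.7), and in anterior control midgut Krn and pnt (21.3 each) and sty (20.8) lay above spi (18.9). Over all libraries the ETS factor pnt (14.0) and the inhibitor sty (13.0) followed, and rho (4.77), Egfr (3.46) and kek1 (3.30) were lower. The secreted ligand vn (1.18) and the secreted antagonist aos (0.852) were the least abundant. The spread between libraries differed widely among them. For Krn the highest library (33.4) and the lowest (13.6) lay close together, whereas kek1 ran from 35.2 scaled FPKM to 0. The authors' confidence limits show the same contrast in precision: their half-width came to a median of 7.74% of the value for spi and 48.4% for kek1, whose anterior values imply few fragments.

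**Figure D1:**
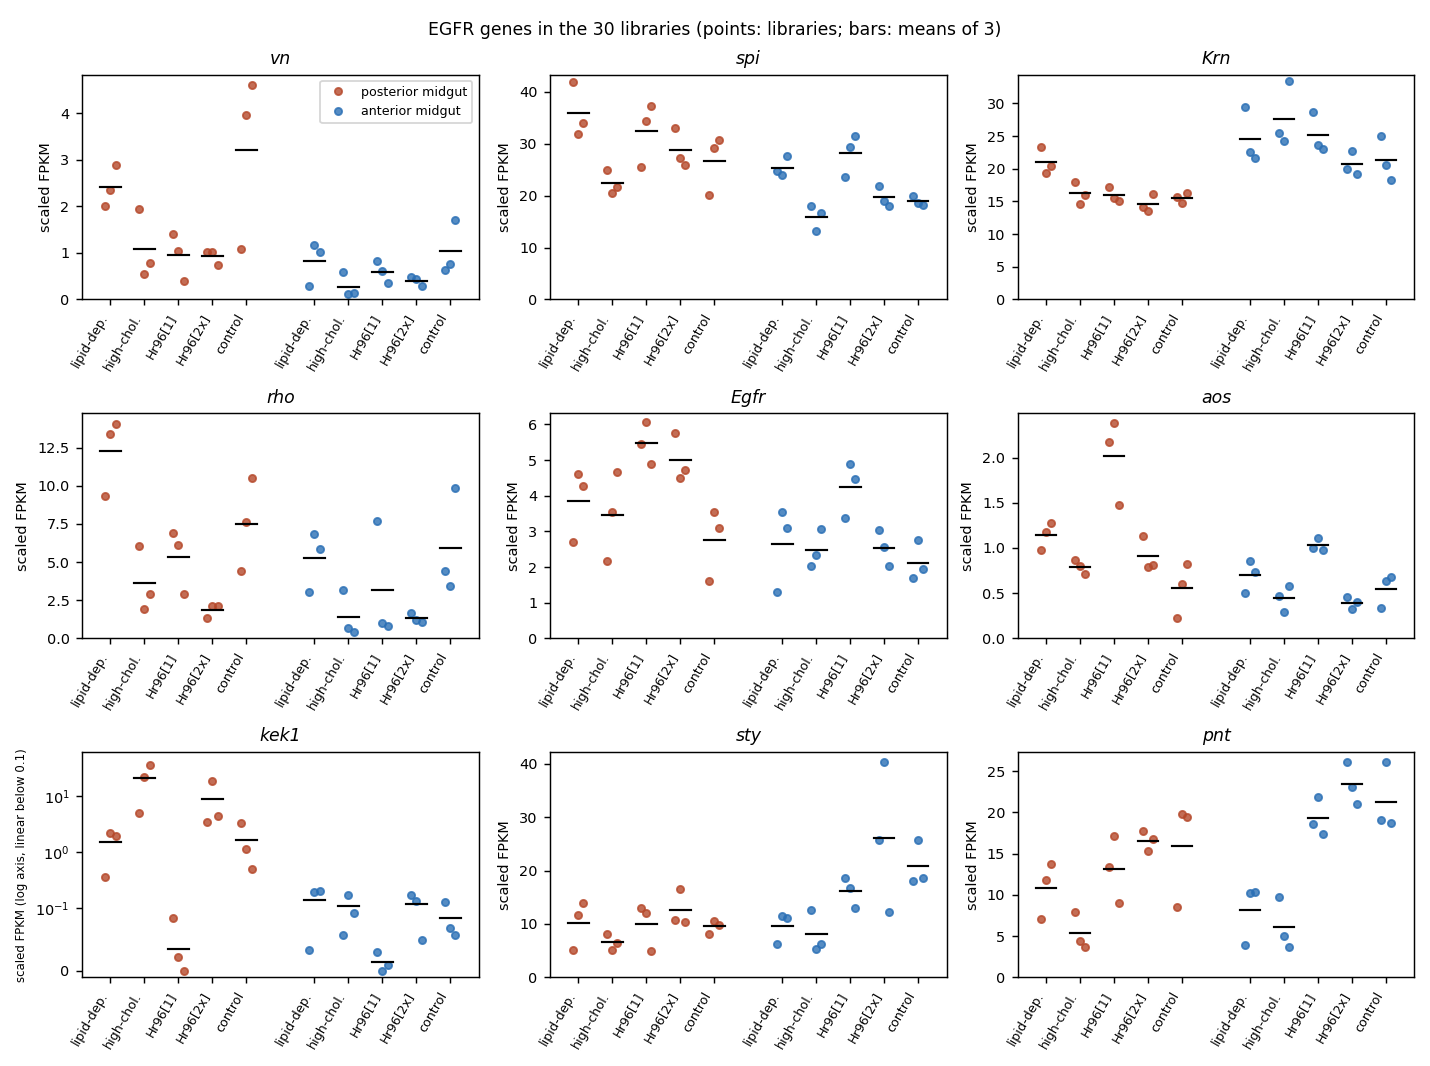
Scaled FPKM of each of the 9 genes (vertical axes, one panel a gene; the kek1 axis is logarithmic above 0.1 and linear below) in the 10 groups of region and condition, with 1 point per library, a bar at the mean of 3 and the posterior groups left of the anterior ones. Levels of kek1 are near 0 in all anterior libraries and reach 35.2 in posterior high-cholesterol libraries, while spi and Krn are expressed in every library.

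The order of the 10 group means says how far the groups stand apart. For rho, Egfr, pnt and sty, each group's range overlapped that of the next group in the order, in 9 of 9 neighbouring pairs. For vn the posterior lipid-depleted and control means of 2.41 and 3.22 stood at the top, and the lipid-depleted libraries did not overlap the next group, posterior high cholesterol. For aos only the posterior Hr96[1] group, at 2.01, was separated from its neighbour, posterior lipid-depleted midgut at 1.14. For kek1 posterior high-cholesterol (20.6) and Hr96[2x] (8.70) midgut overlapped each other and lay above posterior lipid-depleted (1.498) and control midgut (1.67), and these lay above the other 6 groups. For Krn the 5 anterior groups and the posterior lipid-depleted group (21.0) lay above the other 4 posterior groups.

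Between the regions, kek1, spi, Egfr and vn were higher and Krn lower in posterior midgut wherever they were called. Of the 8 tested genes, 4 were called in Hr96[2x], with 18.9% of all genes called in that comparison, 2 on high cholesterol (17.4% of all genes), 2 on the control diet (14.7%) and 1 in Hr96[1] (14.0%). None was called on the lipid-depleted diet, where limma called 12.3% of all genes and 3 of the 8 had an unadjusted p under 0.05. That makes 9 calls in 40 tests, 5 higher and 4 lower in posterior midgut. All 4 lower calls were Krn. With region pairs of the same replicate number as a block, in the 3 conditions whose numbers are taken to pair the regions, 4 genes were called on the lipid-depleted diet (vn, spi, rho and Egfr, all higher), 4 in Hr96[1] and 5 in Hr96[2x]. That pairing, here and for the single genes below, was read from these data and not from the labels. The share of all genes called with this block is not given here, so its counts have no background beside them. The posterior and anterior libraries did not overlap for 6 of the 8 genes in Hr96[2x] (33.4% of all genes), 4 on the lipid-depleted diet (32.3%), 4 on the control diet (36.6%), 3 on high cholesterol (34.5%) and 3 in Hr96[1] (23.6%).

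**Figure D2:**
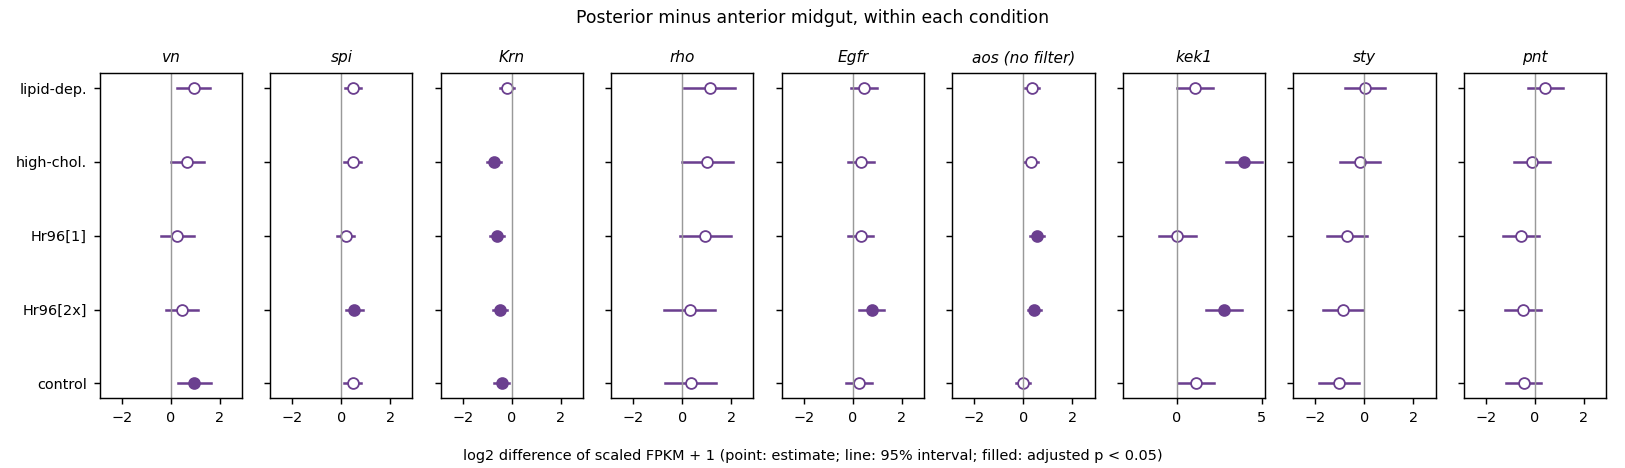
Log2 difference of posterior minus anterior midgut for each gene (horizontal axes; the kek1 axis runs further than the rest) in the 5 conditions, with 95% intervals and filled points where the adjusted p is under 0.05. Krn lies below 0 in all 5 conditions, and kek1 reaches 3.94 on high cholesterol and 2.79 in Hr96[2x].

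Against the control group, pnt was lower in anterior midgut on both diets, kek1 higher in posterior midgut on high cholesterol and in Hr96[2x], and vn lower in posterior midgut of both Hr96 strains. On the lipid-depleted diet limma called none of 8 in posterior midgut (3.83% of all genes), where 2 had an unadjusted p under 0.05, and 1 in anterior midgut (3.17%), pnt, which was lower. On high cholesterol 1 gene was called in posterior midgut, kek1, which was higher (0.876% of all genes), and 1 in anterior midgut, pnt, which was lower (3.52%). In Hr96[1] posterior midgut Egfr was higher and vn lower (12.9% of all genes called), and in anterior midgut Egfr and spi were higher (23.9%). In Hr96[2x] posterior midgut kek1 was higher and vn lower (11.2%), and in anterior midgut rho was lower (18.4%). The condition and control libraries did not overlap for 2 of 8 genes on high cholesterol in posterior (13.7% of all genes) and 5 in anterior midgut (21.5%), and for 2 in posterior (22.7%) and 3 in anterior lipid-depleted midgut (20.9%). In Hr96[1] they did not overlap for 2 in posterior (30.3%) and 3 in anterior midgut (40.7%), and in Hr96[2x] for 4 in posterior (33.7%) and 2 in anterior midgut (36.2%). These comparisons share the control libraries within a region.

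Most of these calls depended on the processing. With replicates 2 and 3 of each group averaged to 1, limma made 3 regional calls, against 9, and no call against control, against 10. With only the compared groups in the fit, 6 regional calls were made, and against control 1 in Hr96[1], 1 in Hr96[2x] and none on either diet. On FPKM as deposited, with no further scaling, 13 regional calls were made, all higher in posterior midgut: spi in all 5 conditions, Egfr in 3, kek1 and vn in 2 each and rho in 1. There the median of all genes was shifted by log2 0.35 to 0.65 towards posterior midgut, and against control by between −0.47 and 0.12 over the 8 comparisons. The share of all genes called is not given for these alternative fits, so their counts are not set against it.

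**Figure D3:**
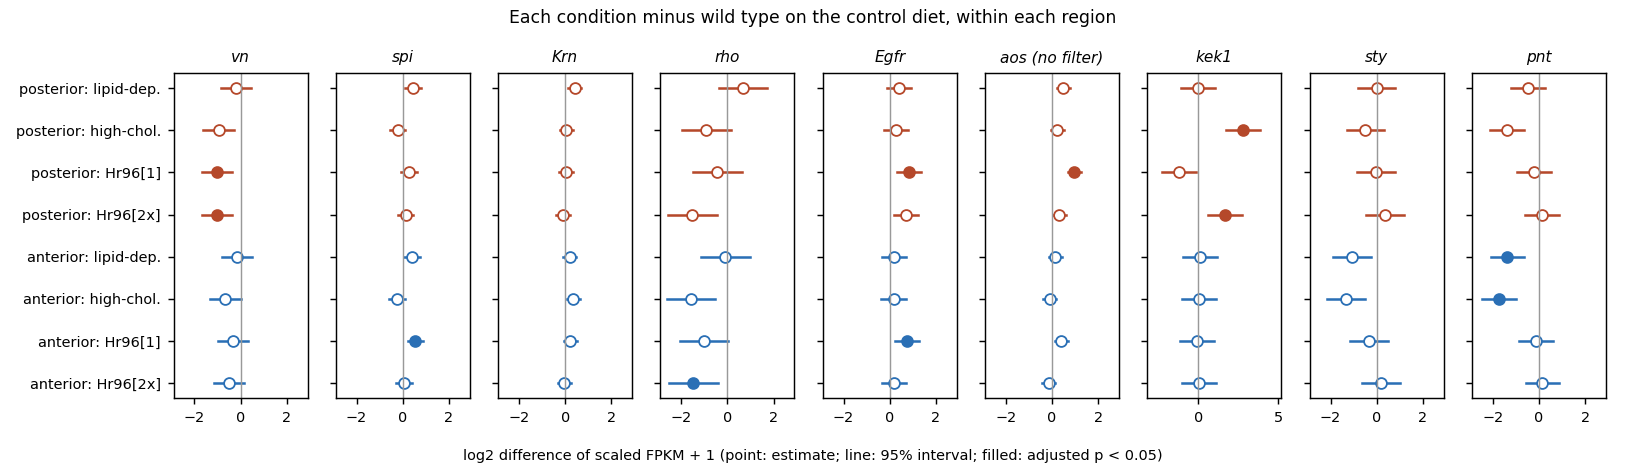
Log2 difference of each condition minus the control group for the 9 genes, in posterior and anterior midgut, with 95% intervals and filled points where the adjusted p is under 0.05. The largest filled difference is that of kek1 on high cholesterol in posterior midgut, at 2.81.

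The ligand spi (FBgn0005672, 2L 19567900 to 19577315, minus strand, dm6) is the broadly used, membrane-bound EGFR ligand of the fly. In lipid-depleted midgut it stood at 41.9, 31.8 and 34.1 scaled FPKM in posterior and 24.7, 23.9 and 27.6 in anterior libraries. On high cholesterol it stood at 24.9, 20.5 and 21.7 in posterior and 18.1, 13.2 and 16.7 in anterior ones. By their means these were the highest posterior and the lowest anterior groups of the 10. In Hr96[1] posterior libraries held 25.6, 34.4 and 37.2 scaled FPKM and anterior ones 23.7, 29.5 and 31.6, with overlap between the regions. In Hr96[2x] the levels were 33.1, 27.3 and 25.9 in posterior and 21.9, 19.0 and 18.1 in anterior libraries. Control libraries held 20.2, 29.3 and 30.8 in posterior and 20.04, 18.6 and 18.1 in anterior midgut. Posterior libraries lay above anterior ones without overlap in all conditions but Hr96[1].

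The posterior excess of spi was called in Hr96[2x] (log2 0.52, SE 0.165, adjusted p = 0.0274). It was 0.48 on the lipid-depleted diet (adjusted p = 0.0611), 0.47 on high cholesterol (0.0537) and 0.46 on the control diet (0.0675), and was not called in these. It was called in all 5 conditions on FPKM as deposited, at 0.87 on the lipid-depleted diet (adjusted p = 0.0196), 1.15 on high cholesterol (0.00114), 0.89 in Hr96[1] (0.00764), 1.27 in Hr96[2x] (0.000426) and 0.85 on the control diet (0.0203). The Hr96[2x] call on the scaled values ended without anterior replicate 2 or 3 or posterior replicate 1 (adjusted p = 0.0674, 0.106 and 0.138). With region pairs of the same replicate number as a block, the lipid-depleted difference was called (adjusted p = 0.0125). Against control, spi was higher in Hr96[1] anterior midgut (log2 0.55, SE 0.165, adjusted p = 0.0194), with no overlap. That call ended without anterior control replicate 2 or 3 or Hr96[1] replicate 2 or 3 (adjusted p from 0.0523 to 0.0989), and on FPKM as deposited it was 0.20 (adjusted p = 0.599). Lipid-depleted libraries also lay above control ones without overlap in both regions, at 0.43 in posterior (adjusted p = 0.190) and 0.41 in anterior midgut (0.229), and neither was called.

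Krn (FBgn0052179, 3L 17649562 to 17654280, minus strand, dm6) encodes a spi-like ligand that is also released by cutting. It shares 289 exonic bases, 21.3% of its exons, with Ndfip on the same strand, which had a mean of 32.3 scaled FPKM, so the split of fragments between them is uncertain. No other of the 9 genes shares exonic bases with another annotated gene, although rho lies inside Ptp61F and aos inside CG33158 on the opposite strand, and the libraries do not mark strand. In lipid-depleted midgut Krn stood at 23.4, 19.3 and 20.4 scaled FPKM in posterior and 29.5, 22.5 and 21.6 in anterior libraries, with overlap. On high cholesterol it stood at 18.0, 14.6 and 16.0 in posterior and 25.4, 24.2 and 33.4 in anterior libraries. The gap between the regions was widest there. In Hr96[1] the values were 17.2, 15.5 and 15.1 in posterior and 28.7, 23.6 and 23.0 in anterior libraries. In Hr96[2x] they were 14.1, 13.6 and 16.2 in posterior and 19.95, 22.8 and 19.2 in anterior libraries. Control libraries held 15.7, 14.7 and 16.2 in posterior and 24.97, 20.6 and 18.3 in anterior midgut. In these 4 conditions no posterior library reached the lowest anterior one.

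Krn was lower in posterior midgut on high cholesterol (log2 −0.73, SE 0.140, adjusted p = 0.000521), in Hr96[1] (−0.62, 0.00306), in Hr96[2x] (−0.47, 0.0192) and on the control diet (−0.42, 0.0455). The lipid-depleted difference was −0.21 (adjusted p = 0.387). On FPKM as deposited Krn stood at −0.02 on high cholesterol, 0.08 in Hr96[1], 0.28 in Hr96[2x] and −0.04 on the control diet, none of them called. Its lower posterior level is thus relative to the median gene. The high-cholesterol and Hr96[1] calls held without any single library. The Hr96[2x] call ended without anterior replicate 2 or posterior replicate 1 or 2 (adjusted p = 0.0778, 0.0637 and 0.0777), and the control call without any library but anterior replicate 3 (adjusted p from 0.0785 to 0.234). No condition moved Krn past the threshold against control in either region in limma, with 2 of 8 unadjusted p under 0.05, the nearest being lipid-depleted posterior midgut (0.41, adjusted p = 0.120).

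The ligand vn (FBgn0003984, 3L 5813338 to 5845664, minus strand, dm6) is the neuregulin-like one that needs no cutting. In lipid-depleted midgut it stood at 2.00, 2.35 and 2.88 scaled FPKM in posterior and 0.296, 1.17 and 1.03 in anterior libraries. On high cholesterol it stood at 1.95, 0.541 and 0.786 in posterior and 0.586, 0.115 and 0.130 in anterior libraries. Replicate 1 was the highest of its group in both regions. In Hr96[1] the levels were 1.404, 1.05 and 0.404 in posterior and 0.819, 0.605 and 0.361 in anterior libraries. In Hr96[2x] they were 1.02, 1.03 and 0.737 in posterior and 0.482, 0.439 and 0.282 in anterior libraries. Control libraries held 1.08, 3.96 and 4.61 in posterior and 0.633, 0.770 and 1.71 in anterior midgut. Posterior control replicate 1 thus lay far below the other posterior control libraries. It is also the library with the highest fat body marker sum, mainly of yolk protein genes. The part of that RNA in its low vn level was not tested.

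Against control, vn was lower in posterior midgut of Hr96[1] (log2 −1.02, SE 0.318, adjusted p = 0.0349) and of Hr96[2x] (−1.01, adjusted p = 0.0411), with no overlap in Hr96[2x]. On high cholesterol the posterior difference was −0.95 and not called (adjusted p = 0.219), and without posterior control replicate 1 it was −1.39 and called (0.0107). The anterior differences were −0.33 in Hr96[1] (adjusted p = 0.480), −0.51 in Hr96[2x] (0.305) and −0.66 on high cholesterol (0.306). The Hr96[1] call ended without posterior control replicate 2 or 3 or Hr96[1] replicate 2 or 3 (adjusted p from 0.0594 to 0.184), and the Hr96[2x] call without any of its libraries but control replicate 1 (0.0834 to 0.238). On FPKM as deposited the Hr96[1] difference was −1.14 (adjusted p = 0.0616). Between regions, vn was higher in posterior midgut on the control diet (0.96, SE 0.318, adjusted p = 0.0435), a call that ended without anterior control replicate 1 or 2 or posterior control replicate 2 or 3 (adjusted p from 0.151 to 0.257) and without the filter on low values (0.0613). In that fit vn was still called lower in posterior Hr96[1] (adjusted p = 0.0447) and Hr96[2x] midgut (0.0496). The lipid-depleted regional difference was 0.93 (adjusted p = 0.0591) and was called with region pairs as a block (0.00435) and on FPKM as deposited (1.24, 0.0251).

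Visceral muscle, which makes vn in the midgut, contributed RNA to these libraries. Summed over 12 sarcomere genes, none of which was at 0 in any library, its markers came to 1303 to 1667 scaled FPKM in posterior Hr96[1], against 740 to 898 in posterior control midgut. In posterior Hr96[2x] they came to 630 to 1389. Of the 11 muscle genes tested, 1 was higher and none lower in posterior Hr96[1] (12.9% of all genes called), and none was called in posterior Hr96[2x], where limma gave 0 at an unadjusted p under 0.05. The lower posterior vn stood beside a muscle marker sum above control in Hr96[1] and one that overlapped control in Hr96[2x]. The part of muscle RNA in these vn differences was not tested. Between the regions 8 of 11 muscle genes were higher in posterior Hr96[2x] midgut (18.9% of all genes called in either direction) and 1 of 11 on the control diet (14.7%), and the part of muscle RNA in the regional differences of vn, spi and Egfr was not tested.

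The protease rho (FBgn0004635, 3L 1463811 to 1468944, plus strand, dm6) cuts spi and Krn inside the membrane. In lipid-depleted midgut it stood at 9.33, 13.4 and 14.1 scaled FPKM in posterior and 3.03, 6.86 and 5.89 in anterior libraries. On high cholesterol the values were 6.07, 1.95 and 2.88 in posterior and 3.18, 0.685 and 0.394 in anterior libraries. Replicate 1 again stood above replicates 2 and 3. In Hr96[1] they were 6.91, 6.11 and 2.89 in posterior and 7.70, 0.997 and 0.830 in anterior libraries. In Hr96[2x] they were 1.36, 2.12 and 2.13 in posterior and 1.69, 1.22 and 1.04 in anterior libraries. Control libraries held 4.44, 7.63 and 10.5 in posterior and 4.44, 3.46 and 9.82 in anterior midgut. All 6 Hr96[2x] libraries lay below all 6 control libraries.

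In Hr96[2x] rho was lower in anterior midgut (log2 −1.48, SE 0.505, adjusted p = 0.0447), and the posterior difference of −1.52 was not called (0.0551). Their 95% intervals were −2.56 to −0.47 in posterior and −2.52 to −0.43 in anterior midgut. The anterior call ended without any of its libraries but control replicate 2 (adjusted p from 0.0694 to 0.222), and without posterior control replicate 1 the posterior difference was called (−1.81, 0.0424). On high cholesterol rho differed by −1.58 in anterior midgut (adjusted p = 0.0852) and was called without anterior high-cholesterol replicate 1 (−2.06, 0.0163). In posterior midgut the difference was −0.91 (adjusted p = 0.633). Lipid-depleted posterior midgut held the highest mean of the 10 groups, 12.3 ± 2.55 (SD, n = 3), and did not differ past the threshold from posterior control midgut at 7.52 ± 3.03 (log2 0.68, adjusted p = 0.576). With region pairs as a block, rho was higher in posterior midgut on the lipid-depleted diet (1.12, adjusted p = 0.0171, against 0.159 without it) and in Hr96[1] (0.93, 0.0409 against 0.265).

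The receptor Egfr (FBgn0003731, chromosome arm 2R) was higher in Hr96[1] in both regions. In Hr96[1] it stood at 5.46, 6.07 and 4.88 scaled FPKM in posterior and 3.37, 4.90 and 4.47 in anterior libraries. In Hr96[2x] it stood at 5.75, 4.51 and 4.71 in posterior and 3.04, 2.56 and 2.03 in anterior libraries. The control libraries held 1.61, 3.55 and 3.09 in posterior and 1.68, 2.75 and 1.94 in anterior midgut. Lipid-depleted libraries held 2.69, 4.62 and 4.26 in posterior and 1.30, 3.54 and 3.10 in anterior midgut. High-cholesterol libraries held 2.18, 3.53 and 4.67 in posterior and 2.04, 2.33 and 3.08 in anterior midgut. Both diets overlapped the control group in both regions.

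Egfr differed from control by log2 0.82 in posterior (SE 0.252, adjusted p = 0.0324) and by 0.75 in anterior Hr96[1] midgut (SE 0.252, adjusted p = 0.0335), with no overlap in either. On FPKM as deposited neither was called (0.83, adjusted p = 0.0930, and 0.46, 0.279). In Hr96[2x] the posterior difference was 0.71, without overlap (adjusted p = 0.0742), and the anterior one 0.19 (0.674). The posterior call in Hr96[1] ended without posterior control replicate 1 or any Hr96[1] library (adjusted p from 0.0558 to 0.187). The anterior one ended without anterior control replicate 1 or 3 or Hr96[1] replicate 2 or 3 (0.0921 to 0.120). Posterior Hr96[2x] midgut was higher than anterior Hr96[2x] midgut (0.76, SE 0.252, adjusted p = 0.0362), a call that ended without any of its libraries but anterior replicate 1 (0.0588 to 0.143). That difference was 1.33 on FPKM as deposited (0.00124), where Egfr was also called higher in posterior midgut on high cholesterol (0.83, 0.0262) and in Hr96[1] (0.91, 0.0159). With region pairs as a block, the regional difference on the lipid-depleted diet was also called (0.45, adjusted p = 0.0231, against 0.273 without it).

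The antagonist aos (FBgn0004569, 3L 16470386 to 16483650, minus strand, dm6) is secreted, binds spi and is a widely used readout of EGFR signalling in fly tissues. In Hr96[1] it stood at 2.17, 2.38 and 1.48 scaled FPKM in posterior and 0.995, 1.11 and 0.979 in anterior libraries. Control libraries held 0.230, 0.605 and 0.826 in posterior and 0.339, 0.636 and 0.675 in anterior midgut. Hr96[1] libraries lay above control libraries without overlap in both regions. Hr96[2x] libraries held 1.14, 0.786 and 0.814 in posterior and 0.452, 0.324 and 0.406 in anterior midgut. Lipid-depleted libraries held 0.979, 1.17 and 1.28 in posterior and 0.497, 0.855 and 0.738 in anterior midgut. High-cholesterol libraries held 0.862, 0.800 and 0.707 in posterior and 0.466, 0.292 and 0.580 in anterior midgut. These are low levels, resting on a median of 54.0 implied fragments per library.

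In the fit without the filter, aos was higher in posterior Hr96[1] midgut than in posterior control midgut (log2 0.96, SE 0.133, adjusted p = 4.21e-05), where 7.79% of 15281 genes were called. The call held without any single library (adjusted p from 2.14e-05 to 0.000573) and ended with only the compared groups in the fit (0.1315). In anterior midgut the difference was 0.39 (adjusted p = 0.0541). The lipid-depleted posterior difference was 0.48 (0.0629). Within Hr96[1], posterior midgut was higher than anterior midgut (0.56, adjusted p = 0.00818, with 8.12% of genes called), and likewise within Hr96[2x] (0.45, 0.0277, with 11.7%). Leaving out single libraries brought these to adjusted p of up to 0.0584 and 0.136. Both calls also ended with only the compared groups in the fit (adjusted p = 0.208 and 0.0591) and with replicates 2 and 3 averaged (0.0886 and 0.125). The Hr96[2x] call ended with quantile normalization too (0.166). With region pairs as a block, the regional difference on the lipid-depleted diet was called too (0.34, adjusted p = 0.0255, against 0.144 without it).

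In Hr96[1], where Egfr was higher in both regions, spi in anterior and aos in posterior midgut, summed visceral muscle markers lay above control without overlap in both regions. Their sum was 1303 to 1667 scaled FPKM in posterior Hr96[1] against 740 to 898 in posterior control midgut, and 843 to 1028 in anterior Hr96[1] against 552 to 614 in anterior control midgut. In posterior Hr96[1] 1 of 11 muscle genes was called higher (12.9% of all genes), and in anterior Hr96[1] 4 higher and 1 lower (23.9%). Hemocyte sums were 5.59 to 6.38 in posterior Hr96[1] against 1.12 to 2.09 in posterior control midgut, and 5.83 to 10.3 against 2.27 to 4.10 in anterior midgut. Trachea sums were 7.20 to 13.8 against 5.30 to 6.20 in posterior and 9.83 to 12.51 against 4.34 to 5.38 in anterior midgut. Of 6 hemocyte and 5 trachea markers, 1 each passed the filter on low values (srp and Gasp), so these sums rest on few, low genes. Malpighian tubule sums were 29.9 to 238 in posterior Hr96[1] against 1.47 to 17.8 in posterior control midgut. In anterior midgut enterocyte sums were lower, at 7546 to 53300 in Hr96[1] against 64387 to 97483 in control libraries. That difference lay mainly in the digestive enzyme genes alphaTry and betaTry, since no other enterocyte marker exceeded 1248 in any anterior library. Both enzyme genes had a failed or overloaded estimate in at least 1 library, and the part of such estimates in the lower sums was not tested. The other 7 of 11 marker lists overlapped control in each region. Stem cell and enteroblast markers, summed over 9 genes, stood at 50.3 to 80.3 in posterior Hr96[1] against 32.0 to 74.2 in posterior control midgut. None of these 9 was called there by limma, with 0 at an unadjusted p under 0.05, and 1 was called higher in anterior Hr96[1]. The part of these cells in the differences of Egfr, spi and aos was not tested.

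The inhibitor kek1 (FBgn0015399, 2L 12817000 to 12822787, minus strand, dm6) encodes a leucine-rich repeat protein of the cell surface that binds Egfr and blocks it. It had the largest ratio of highest to lowest library of the 9 genes, since it was listed at 0 in 2 libraries. On high cholesterol it stood at 4.91, 21.8 and 35.2 scaled FPKM in posterior libraries, and at 0.0569, 0.177 and 0.0934 in anterior ones. In Hr96[2x] it stood at 3.46, 18.3 and 4.39 in posterior and at 0.171, 0.135 and 0.0499 in anterior libraries. Within both groups a single library or a pair held far more than the rest. Lipid-depleted libraries held 0.369, 2.19 and 1.93 in posterior and 0.0329, 0.193 and 0.206 in anterior midgut. Control libraries held 3.36, 1.15 and 0.497 in posterior and 0.131, 0.0689 and 0.0572 in anterior midgut. In Hr96[1] kek1 was at 0.0842, 0.0222 and 0 in posterior and at 0.0310, 0 and 0.0103 in anterior libraries. No anterior library of any group exceeded 0.206, and Hr96[1] was the single condition in which the posterior libraries were as low.

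Posterior midgut exceeded anterior midgut by log2 3.94 on high cholesterol (SE 0.514, adjusted p = 3.67e-06) and by 2.79 in Hr96[2x] (SE 0.514, adjusted p = 0.000306). Both calls held without any single library, with adjusted p of at most 6.40e-05 and 0.00391, and in all other settings tried. The posterior libraries also lay above the anterior ones without overlap on the control diet (1.15, adjusted p = 0.157) and on the lipid-depleted diet (1.04, 0.207), with no call. In Hr96[1] the regional difference was 0.03, with a 95% interval of −1.03 to 1.09. Against posterior control midgut, kek1 was higher on high cholesterol (2.81, SE 0.514, adjusted p = 0.00850) and in Hr96[2x] (1.68, adjusted p = 0.0345), without overlap in either. In the fit without the filter on low values both were still called, that in Hr96[2x] just under the threshold (adjusted p = 0.0151 and 0.0495). The high-cholesterol call ended without posterior control replicate 2 or 3 or high-cholesterol replicate 2 or 3 (adjusted p from 0.0557 to 0.107). Without posterior Hr96[2x] replicate 2, the Hr96[2x] difference was 1.02 (0.253), and without posterior control replicate 2 or 3 it was 1.598 (0.104) and 1.34 (0.182). With a pseudocount of 5 the Hr96[2x] difference was 0.90 (0.0912). In posterior Hr96[1] all 3 libraries lay below the lowest control library, a difference of −1.22 that was not called (adjusted p = 0.125) and was called with a pseudocount of 0.5 (−1.79, 0.0455).

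Of the conditions in which kek1 was higher than control, posterior Hr96[2x] also differed in markers of several cell types. There 8 of 10 tested enteroendocrine genes were higher (11.2% of all genes called), with summed levels of 997 to 1339 scaled FPKM against 206 to 380 in posterior control midgut. On high cholesterol, where kek1 was highest, none of the 10 was called by limma in posterior midgut, with 0 at an unadjusted p under 0.05, and the sums were 230 to 258. There all 11 marker lists overlapped control. In posterior Hr96[2x] summed enterocyte markers were 10670 to 15374 against 2717 to 2920 in posterior control midgut, and neuron markers 5.27 to 6.08 against 2.03 to 2.43. The enterocyte excess lay mainly in digestive enzyme genes. Over all posterior libraries alphaTry reached 9414 and betaTry 4055 scaled FPKM, and no other enterocyte marker exceeded 1148. Both enzyme genes had a failed or overloaded estimate in at least 1 library, and the part of such estimates in these sums was not tested. Fat body sums, mainly of yolk protein genes, were lower in posterior Hr96[2x], at 24.0 to 67.8 against 101 to 1894. Trachea sums were lower too, at 2.59 to 3.95 against 5.30 to 6.20. Of 5 neuron and 5 trachea markers, 1 each passed the filter on low values (nSyb and Gasp), so these sums rest on few, low genes. In anterior Hr96[2x], where rho was lower, enteroendocrine (356 to 387 against 96.8 to 295) and neuron sums (3.20 to 4.50 against 1.48 to 2.85) lay above anterior control midgut and trachea sums below it (1.56 to 4.11 against 4.34 to 5.38). Of the 11 listed markers, AstA and Dh31 were at 0 in 1 and 2 libraries, all of them anterior. Dh31 was left out of the tests for a failed or overloaded estimate in at least 1 library, so its values of 0 may not mean absence. The part of these cells in the differences of kek1, vn and rho in Hr96[2x] was not tested.

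The inhibitor sty (FBgn0014388, 3L 3401153 to 3424935, minus strand, dm6), also known as sprouty, acts inside the cell on signalling through Ras. In lipid-depleted midgut it stood at 5.04, 11.6 and 14.0 scaled FPKM in posterior and 6.24, 11.4 and 11.2 in anterior libraries. On high cholesterol it stood at 8.17, 5.15 and 6.38 in posterior and 12.6, 5.35 and 6.23 in anterior libraries. The regions overlapped on both diets. In Hr96[1] the values were 13.0, 12.1 and 4.92 in posterior and 18.6, 16.7 and 13.0 in anterior libraries. In Hr96[2x] they were 10.8, 16.6 and 10.4 in posterior and 25.8, 40.4 and 12.3 in anterior libraries. Control libraries held 8.10, 10.6 and 9.87 in posterior and 18.0, 25.7 and 18.7 in anterior midgut. The posterior control libraries lay below all anterior control libraries.

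None of the 17 sty differences was called by limma, and 4 had an unadjusted p under 0.05. The largest were those of anterior midgut on high cholesterol (log2 −1.33, SE 0.393, adjusted p = 0.0614) and on the lipid-depleted diet (−1.06, adjusted p = 0.167), both without overlap against control. Without anterior high-cholesterol replicate 1 the high-cholesterol difference was −1.67 and was called (adjusted p = 0.0147). In posterior midgut the differences were −0.49 on high cholesterol (adjusted p = 0.861) and −0.00 on the lipid-depleted diet (1.00), with 95% intervals of −1.30 to 0.33 and −0.82 to 0.81. The posterior level on the control diet was lower by −1.04 on the log2 scale (adjusted p = 0.0846). With region pairs as a block, sty was lower in posterior midgut of Hr96[1] (−0.72, adjusted p = 0.0204, against 0.265 without it) and of Hr96[2x] (−0.88, 0.00570 against 0.133), and without anterior Hr96[2x] replicate 3 the difference in Hr96[2x] was −1.32 (0.0260).

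The ETS factor pnt (FBgn0003118, 3R 23290231 to 23346167, minus strand, dm6) carries the MAP kinase signal to target genes, and its transcription is itself raised by signalling in some fly tissues. In lipid-depleted midgut it stood at 7.005, 11.8 and 13.8 scaled FPKM in posterior and 3.87, 10.2 and 10.4 in anterior libraries. On high cholesterol it stood at 7.96, 4.45 and 3.69 in posterior and 9.69, 4.98 and 3.66 in anterior libraries. These were the lowest 2 conditions in anterior midgut. In Hr96[1] pnt stood at 13.3, 17.1 and 9.02 in posterior and 18.6, 21.9 and 17.4 in anterior libraries. In Hr96[2x] it stood at 17.7, 15.3 and 16.7 in posterior and 26.2, 23.1 and 21.0 in anterior libraries. Control libraries held 8.56, 19.8 and 19.4 in posterior and 19.1, 26.1 and 18.7 in anterior midgut. Posterior control replicate 1 was again low against the other 2 posterior control libraries.

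In anterior midgut pnt was lower than on the control diet both on high cholesterol (log2 −1.72, SE 0.352, adjusted p = 0.00860) and on the lipid-depleted diet (−1.37, SE 0.352, adjusted p = 0.0331), with no overlap in either. The high-cholesterol call ended without anterior control replicate 2 or high-cholesterol replicate 2 or 3 (adjusted p = 0.0580, 0.0637 and 0.0972). The lipid-depleted call ended without any anterior control library or lipid-depleted replicate 1 (adjusted p from 0.0580 to 0.185), and on FPKM as deposited (−1.21, 0.195). Of the 11 marker lists, visceral muscle alone did not overlap control in these groups, with anterior sums of 378 to 544 on high cholesterol and 423 to 459 on the lipid-depleted diet against 552 to 614 in control libraries, and its part in the pnt differences was not tested. In posterior midgut pnt differed by −1.38 on high cholesterol (adjusted p = 0.0696) and was called without posterior control replicate 1 (−1.75, 0.0101) or high-cholesterol replicate 1 (−1.66, 0.0164). The lipid-depleted posterior difference was −0.47 (0.579). Neither Hr96 strain differed from control in pnt past the threshold, with differences from −0.21 to 0.14 over both regions and adjusted p of 0.743 or more. The regional differences ran from −0.56 in Hr96[1] to 0.43 on the lipid-depleted diet, and with region pairs as a block that in Hr96[1] was called (adjusted p = 0.0316, against 0.364 without it). On FPKM as deposited the Hr96[1] value turned to 0.13 (0.816).

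Whether a response differed between regions was tested directly, as the response in posterior minus that in anterior midgut. None of the 8 genes was called on the lipid-depleted diet (0.576% of all genes called by limma), on high cholesterol (0.0240%), in Hr96[1] (0.408%) or in Hr96[2x] (0.360%). Only kek1 had an unadjusted p under 0.05, on high cholesterol (log2 2.78, 95% interval 1.28 to 4.29, adjusted p = 0.520) and in Hr96[2x] (1.64, 0.14 to 3.14, 0.799). Without posterior high-cholesterol replicate 1 the difference on high cholesterol was called (3.54, adjusted p = 0.0112). For aos, in the fit without the filter, the differences were 0.57 in Hr96[1] (adjusted p = 0.350) and 0.46 in Hr96[2x] (0.663). With all libraries kept, a call in a single region is therefore not shown to be particular to that region for any of the 9 genes.

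Some of the 9 genes varied together from library to library. Over 30 libraries, which share the tissue and the scaling, vn and rho correlated at Pearson's r = 0.82 on the log2 scale, with 0.80 over 15 posterior and 0.88 over 15 anterior libraries. The inhibitor sty and the ETS factor pnt correlated at 0.82, with 0.75 in posterior and 0.89 in anterior libraries. Egfr and aos correlated at 0.78, with 0.71 in posterior and 0.74 in anterior libraries. Egfr correlated at 0.16 with the secreted ligand vn (−0.29 in posterior and 0.08 in anterior libraries) and at 0.005 with the protease rho (−0.23 and −0.22). Among the inhibitors, kek1 and aos correlated at −0.02 over all libraries, with −0.54 in posterior and −0.42 in anterior libraries. For kek1 and sty the values were −0.29 over all, −0.09 in posterior and −0.03 in anterior libraries. These values describe the libraries, and groups as well as replicates contribute to them.

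**Figure D4:**
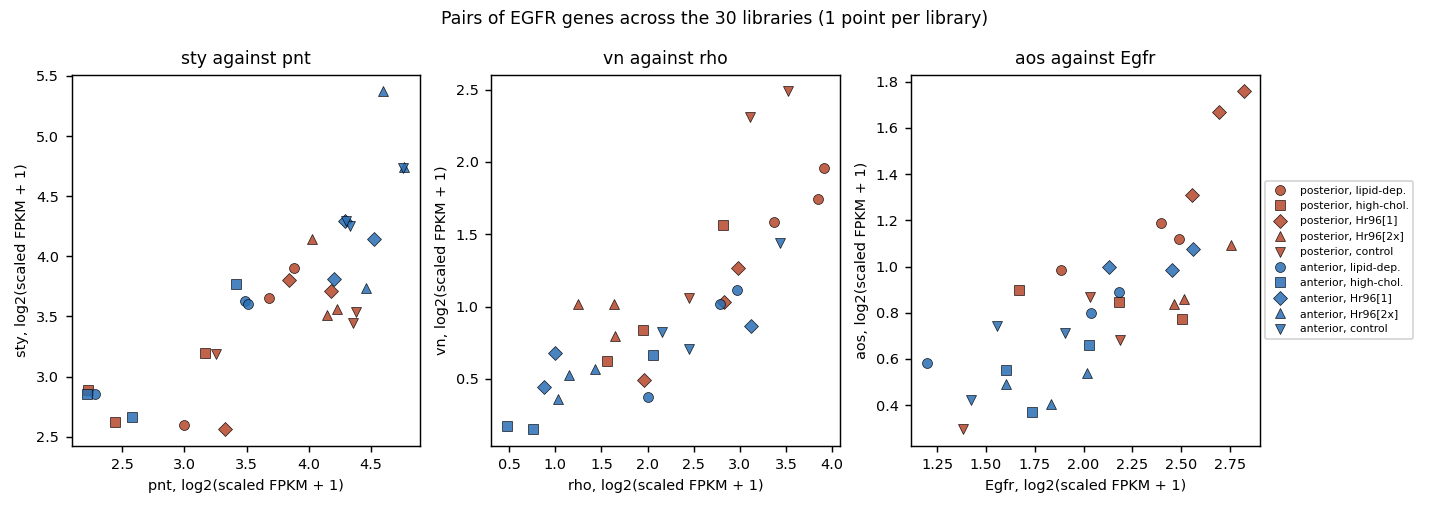
Log2(scaled FPKM + 1) of sty against pnt, of vn against rho and of aos against Egfr, with 1 point per library, coloured by region and shaped by condition. Libraries high in one gene of a pair tend to be high in the other, at Pearson's r of 0.82, 0.82 and 0.78 over 30 libraries.

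Outside the 9 genes, the genes closest to each over the 30 libraries, by the same measure and among all genes tested, were mostly not of the pathway. For rho they were ena, a regulator of actin (0.915), and upd3, a cytokine of the JAK/STAT pathway (0.91). For vn they were Mtl, a Rac-like GTPase (0.865), and Lmpt (0.86). For spi they were Tre1, a G protein-coupled receptor (0.89), and Rap2l (0.87). For Krn they were CG13323 and Tsp42Eg (0.86 each). For Egfr they were CR44897 (0.87) and Dscam1, a cell adhesion molecule (0.84). For kek1 they were Hk, a potassium channel subunit (0.89), and CG4288 (0.86). For pnt they were Cyp317a1 (0.80) and CG11811 (0.79), and for sty CG42389 and ck (0.84 each).

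The other listed genes of the pathway numbered 35, of which 34 were matched (all but Gap1) and 28 were tested. Against control, every call among these was lower. How the calls of all genes split into higher and lower is not given here. In Hr96[2x] 6 of 28 were called in posterior midgut, where 11.2% of all genes were called, with a median log2 difference of −0.22, and 9 of 28 in anterior midgut (18.4% of all genes), with a median of −0.26. In Hr96[1] 3 of 28 were called in posterior (12.9% of all genes, median −0.19) and 7 of 28 in anterior midgut (23.9%, −0.33), shares near those of all genes. On high cholesterol none of 28 was called in posterior midgut (0.876% of all genes, median −0.07) and 4 in anterior midgut (3.52%, −0.16). Neither region had a call on the lipid-depleted diet. The median over all genes tested was between −0.02 and 0.01 in each of these comparisons. At an unadjusted p under 0.05, limma found 2 of 28 in high-cholesterol posterior, 0 in lipid-depleted posterior and 2 in lipid-depleted anterior midgut.

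The 29 calls fell on 13 genes: 4 of 7 negative regulators, 3 of 7 nuclear effectors, 4 of 11 genes from the receptor to MAP kinase and 2 of 3 of ligand processing. The share of all genes called in any of these comparisons is not given here, so the counts by role are a description only. Mkp3, a phosphatase that inactivates MAP kinase, was at 7.95 ± 0.385 scaled FPKM in Hr96[2x] against 21.8 ± 4.25 in control anterior midgut (SD, n = 3 each; log2 −1.34, adjusted p = 4.24e-05), and lower there on high cholesterol (−1.06, 0.00458) and in Hr96[1] (−0.87, 0.00280). In posterior Hr96[2x] midgut Mkp3 was lower by −0.95 on the log2 scale (adjusted p = 0.00198). Spred, a relative of sty that restrains Ras signalling, was lower in Hr96[2x] in posterior (−0.87, adjusted p = 0.000486) and anterior midgut (−0.82, 0.000715), and in posterior Hr96[1] midgut (−0.59, 0.0125). Ets21C, a stress-responsive ETS factor, averaged 9.83 ± 3.93 in Hr96[2x] against 29.0 ± 3.29 scaled FPKM in control posterior midgut (log2 −1.52, adjusted p = 0.00218), and 12.1 ± 3.58 against 33.9 ± 5.64 in anterior midgut (−1.45, 0.00260). These Hr96[2x] calls held without any single library. The scaffold ksr, which joins the kinases of the cascade, was lower in Hr96[1] in posterior (−0.72, adjusted p = 0.00754) and anterior midgut (−1.23, 2.37e-05), and the scaffold cnk in anterior Hr96[1] midgut (−0.68, 0.00392). The rhomboid relative rho-4 was lower in posterior Hr96[1] midgut (−0.57, 0.0250). On high cholesterol edl, which binds ETS factors, differed by −1.14 (adjusted p = 0.0127) and kay, a subunit of AP-1, by −0.90 (0.0187) in anterior midgut. The edl call ended without anterior control replicate 3 or high-cholesterol replicate 2 or 3 (adjusted p from 0.0881 to 0.134), and the kay call without any library but high-cholesterol replicate 1 (0.0523 to 0.147). The posterior Hr96[1] call of ksr ended without Hr96[1] replicate 3 (adjusted p = 0.0603), that of Spred without control replicate 3 or Hr96[1] replicate 3 (0.0712 and 0.0644) and that of rho-4 without control replicate 1 or Hr96[1] replicate 3 (0.144 and 0.103).

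**Figure D5:**
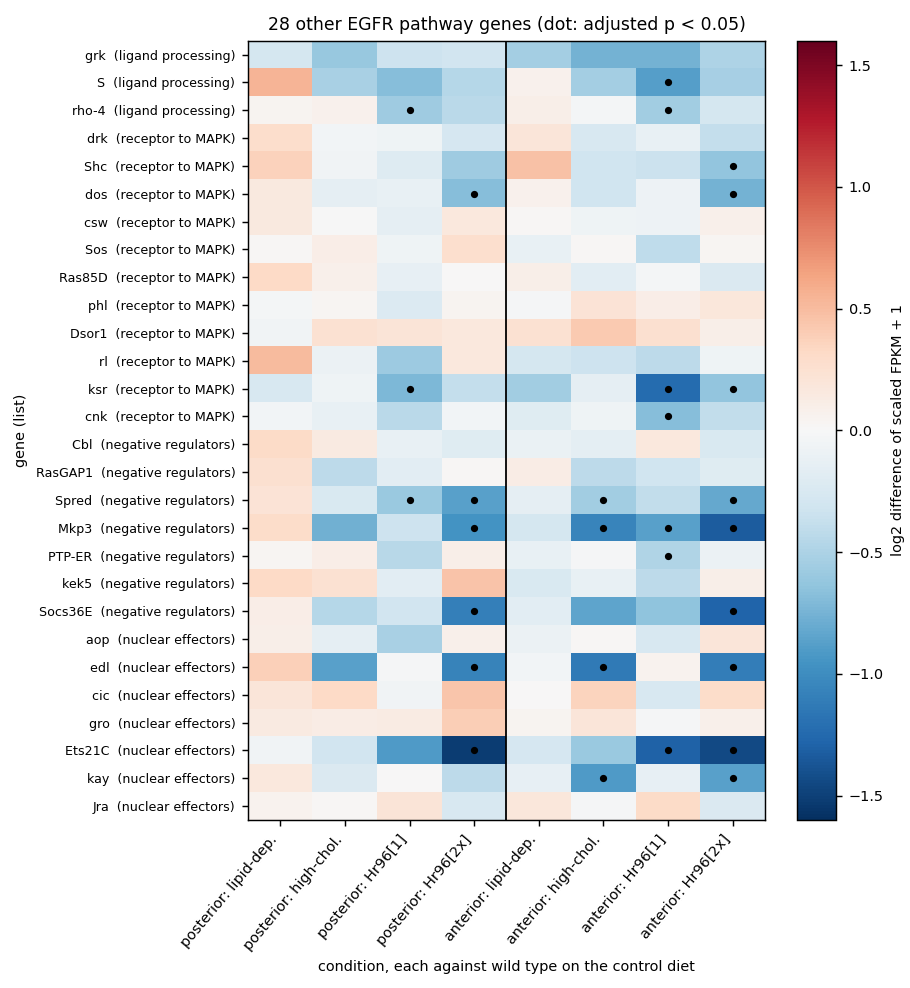
Log2 difference from control (colour, blue below 0) of the 28 tested genes of the EGFR pathway lists, 1 row a gene and grouped by role, in each condition of the posterior and anterior midgut (columns), with a dot where the adjusted p is under 0.05. Every dot lies on a value below 0, and those of Mkp3 in Hr96[2x] mark −0.95 in posterior and −1.34 in anterior midgut.

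Between regions, 6 of 28 pathway genes were called on high cholesterol (5 higher and 1 lower in posterior midgut; 17.4% of all genes called), 2 on the lipid-depleted diet (both higher; 12.3%), 2 on the control diet (1 higher, 1 lower; 14.7%) and 1 each in Hr96[1] (14.0%) and Hr96[2x] (18.9%), both higher. Ras85D, the Ras GTPase that carries the signal, stood at 41.7 ± 5.16 in posterior against 25.9 ± 7.64 scaled FPKM in anterior midgut on high cholesterol (log2 0.69, adjusted p = 0.00231). It was also higher in posterior midgut on the lipid-depleted diet (0.67, 0.00530) and in Hr96[2x] (0.69, 0.00232). The protease rho-4 was higher in posterior midgut on high cholesterol (0.72, adjusted p = 0.00291), on the lipid-depleted diet (0.57, 0.0250), in Hr96[1] (0.60, 0.0156) and on the control diet (0.61, 0.0126). The adaptor drk was higher on high cholesterol (0.63, 0.0223), and ksr was lower in posterior midgut on the control diet (−0.57, 0.0280). The Ras85D calls and the high-cholesterol call of rho-4 held without any single library, while those of drk and ksr and the other 3 of rho-4 each ended without at least 1 library of their groups.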

How the data were processed

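The deposited tables hold gene-level FPKM and its confidence limits for 1 library each, made by the authors with Cufflinks, per the file headers. The submitters' processing notes name bcl2fastq 2.17.1.14, Bowtie2 2.2.9, TopHat2 2.1.1 and Cufflinks 2.2.1 and the builds dm6 and BDGP6; read filters and the handling of reads with several matching places are not given in the sources used here. FPKM hides the absolute depth, so no counting interval is given.

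Libraries were put on 1 scale with median-of-ratios factors from the 8584 genes detected in every library (30 in all). Left out were 103 genes that the tables mark as a failed or overloaded estimate in at least 1 library, and genes with a mean scaled FPKM under 1, which left 8335. A linear model of the 10 group means was fitted to log2(scaled FPKM + 1) with limma 3.58.1 in R 4.3.3, with a trend in the prior variance and 20 residual degrees of freedom. Python 3.11.15, pandas 2.3.3 and matplotlib 3.10.9 served for reading and plotting. The 17 comparisons were 5 of regions, 8 of conditions with control and 4 of the difference between regions in a response, each with 2-sided p-values adjusted by Benjamini-Hochberg over all genes tested and called under 0.05.

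On data simulated for high cholesterol against control in posterior midgut (8335 genes, 10 draws), the recovered share was 70.5% for changes of log2 1 and 94.6% for changes of log2 2, none in the wrong direction, and 5.39% of calls were false. Changes were placed only in genes with a mean log2(scaled FPKM + 1) above 2, which leaves out vn, aos and kek1. Each simulated gene had the same spread in every group. These shares therefore do not cover low genes or genes whose spread differs between groups.

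Replicate numbers appear in every group. The posterior and anterior libraries of 1 number deviated together in the lipid-depleted, Hr96[1] and Hr96[2x] groups, with correlations of deviations from the group means of 0.20 to 0.52, all above 0.1. There the numbers are taken to pair the regions, and a fit with these pairs as a block is given beside a result where it changes the call. This pairing comes from the data and not from the labels. High cholesterol (lowest correlation 0.085), the control diet (0.038) and all comparisons with control did not meet this limit.

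The genes, the pathway and marker lists and the rule for naming genes were chosen with earlier results of these data known. All 9 genes are given in every library. Of the pathway lists, up to 3 called genes with the smallest adjusted p are named in each comparison, and for each tested gene the 2 genes with the highest Pearson's r. Promoter and protein sequences are not analysed here. Alternatives covered scaling, pseudocount, filter, libraries in the fit, replicate blocks and each library left out in turn.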

Additional observations from a re-analysis of the deposited data

How the results depend on the processing

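Results for single genes were set against each alternative that covered them, and each pair of a result and an alternative was counted. Of these pairs, 804 kept their direction and their side of the threshold, 183 lost a call, 48 gained one and 6 reversed. They cover the named pathway calls and only those results of the 8 tested genes that were called in the main fit or an alternative with no single library left out. Of the calls among the 8 genes tested, those of kek1 between the regions on high cholesterol and in Hr96[2x] held in every setting, with adjusted p of at most 0.0198 and 0.0305 from limma, and the others each ended in at least 1. On FPKM as deposited the posterior minus anterior difference of Krn turned to 0.0758 in Hr96[1] and 0.2753 in Hr96[2x], and that of pnt in Hr96[1] to 0.1316. The anterior Hr96[2x] difference of Krn, close to 0, turned to 0.0804 without control replicate 1, with the region's other libraries kept or with that replicate left out of both regions. Leaving out 1 library at a time took it between −0.1324 and 0.0804.

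Counts of calls moved more, and the share of all genes called under each alternative is not given here. Between the regions, 9 of 40 tests were called, against 3 with replicates 2 and 3 averaged and 6 to 10 without single libraries. For the lipid-depleted diet the count of 1 was 2 with quantile normalization and 0 on FPKM as deposited, with no filter, with only the compared groups in the fit and with replicates 2 and 3 averaged, and it ran from 0 to 1 without single libraries. For high cholesterol the count of 2 was 4 on FPKM as deposited, 4 without control replicate 1 in both regions, and 0 with only the compared groups or with averaged replicates, and it ran from 1 to 4 without single libraries. For Hr96[1] the count of 4 was 2 without control replicate 1 in both regions, 1 with only the compared groups, and 0 on FPKM as deposited or with averaged replicates, and it ran from 2 to 5. For Hr96[2x] the count of 3 was 5 with quantile normalization, 1 with only the compared groups and 0 with averaged replicates, and it ran from 1 to 4. The count of 0 for differences between regions ran from 0 to 1 without single libraries, the 1 being kek1 without posterior high-cholesterol replicate 1. Apart from the smaller number of samples in some of these fits, the cause was not tested.

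Taking replicate numbers as a block gave counts of 8 between regions, 1, 2, 4 and 4 for the lipid-depleted, high-cholesterol, Hr96[1] and Hr96[2x] comparisons and 0 for differences between regions. Against control the numbers were not taken to pair the samples, and under this block Egfr was called in posterior Hr96[2x] midgut (adjusted p = 0.0313 from limma). A replicate block of pairs, with libraries of 1 condition and number as a block, and the fit without control replicate 1 were chosen after seeing the data. The pairs gave 22 calls between the regions (14 higher and 8 lower in posterior midgut) and 0 for differences between regions. The share of all genes called with the pairs is not given here. On high cholesterol and the control diet, where the numbers were not taken to pair the regions, that block called vn, spi and rho (adjusted p = 0.0196, 0.0119 and 0.0244) and spi and sty (0.0150 and 0.00247) as well. Depth limits kek1 in anterior midgut and aos most: their FPKM imply a median of 17.1 and 54.0 fragments over the 30 libraries.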
